A study of Homo sapiens with 12 samples.

Results

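The collagen genes were taken from the count table by name, as the protein-coding genes whose symbol is COL, a number, A and a number. This rule found 44 of the 58735 genes in the table, of which 19951 are protein-coding. By the structure that each collagen builds, 6 were basement membrane network, 5 beaded filament, 1 anchoring fibril, 2 multiplexin, 11 fibrillar, 10 FACIT (collagens that sit on the surface of fibrils), 3 short-chain network and 4 transmembrane genes, and 2 were left as other. The RNA came from HK-2 cells, an immortalized line of human renal proximal tubular epithelium, kept in DMEM/F12 with 10% fetal bovine serum. The 12 samples formed 4 groups of 3: cells given water as the control, the iodinated X-ray contrast agent iohexol at 75 mg I/mL, the antitumor platinum compound cisplatin at 5 µM, or the glycopeptide antibiotic vancomycin at 4 mM, with 48 h of treatment for each drug. All 12 samples are of the same cell line, and the labels do not say whether the 3 samples of a group were separate cultures, so the p-values measure the spread between these samples, which may be technical.

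Collagens are secreted or membrane-bound proteins whose chains wind around each other into a stiff triple helix. Type IV forms the sheet of the basement membrane on which the tubular epithelium rests, types VI, VII and XVIII lie in or beside that membrane, and the fibrillar types form the cables of the interstitium, with FACIT members attached to them. The chains are hydroxylated and glycosylated inside the cell, folded with the help of chaperones, exported, trimmed and cross-linked, and excess fibrillar collagen in the interstitium is a hallmark of kidney fibrosis.

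The total count per sample lay between 14057282 and 18177109, and levels are given as CPM, counts scaled to a common library size after TMM normalization, or as RPKM where genes are compared with each other, since RPKM also divides by gene length. At these totals 3 counts equal 0.165 to 0.213 CPM. Of the 44 collagen genes, 26 passed the filter on low counts in at least 1 comparison of a drug with the control, and 17 had a mean of at least 10 CPM over the 12 samples. The other 18 were tested in no such comparison: COL15A1 reached 16 counts in a sample, COL20A1 14, COL10A1 12, COL6A3 11 and COL4A3 10, while COL2A1, COL4A4, COL23A1, COL6A6, COL1A2, COL5A3, COL13A1, COL25A1, COL3A1, COL4A6, COL21A1, COL19A1 and COL6A5 never passed 9. Of 10 proximal tubule markers 3 to 5 reached 1 CPM in a group, carried by GGT1 and DPP4, while SLC22A6 had no count in any sample and LRP2 was at 0 in 8 of the 12. In each group 3 of the 10 had at most 3 counts in a sample, 2 of them none, so several defining markers of the labelled cell type were absent or nearly so.

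In the control group the collagens of the basement membrane zone were the most abundant per length. COL4A1 stood highest at 88.2 ± 11.5 RPKM (SD, n = 3 here and in all values below), followed by COL4A2 at 66.2 ± 14.2, COL6A2 at 64.9 ± 6.52, COL18A1 at 56.5 ± 10.5, COL6A1 at 53.7 ± 5.77 and COL7A1 at 50.1 ± 10.0 RPKM. The ranges of mean ± SD of the last 5 of these overlapped, though COL6A1 was below COL6A2 in each of the 3 samples. Before division by length, COL4A1 and COL4A2 were at 1299 ± 169 and 1277 ± 273 CPM, with gene lengths of 14738 and 19293 bases. This length counts the exons of all annotated transcripts of a gene, and rankings and ratios between genes depend on it. Comparisons of groups do not. COL14A1 at 21.4 ± 0.634 and COL8A1 at 20.4 ± 0.310 RPKM came next, and COL5A1, the highest fibrillar gene, was at 9.16 ± 1.27 RPKM. The partner chains of the classic interstitial fibrils were nearly missing: COL3A1 summed to 14 counts and COL1A2 to 7 counts over all 12 samples, against 6837 for COL1A1, and COL6A3, the usual partner of COL6A1 and COL6A2, to 68.

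**Figure D1:**
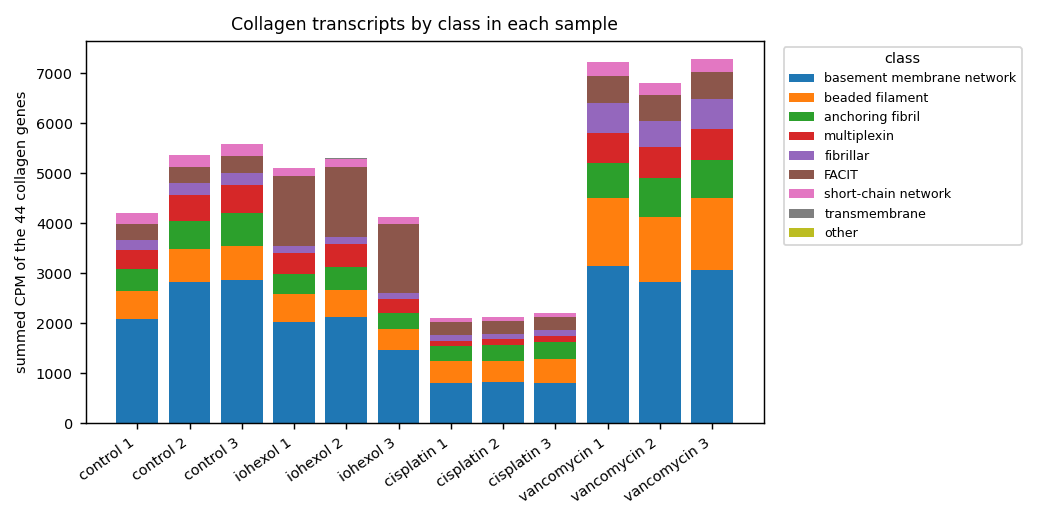
Summed CPM (not divided by length) of the 44 collagen genes in each of the 12 samples, stacked by collagen class. The cisplatin samples stand lowest at 2105 to 2197 CPM and the vancomycin samples highest at 6813 to 7285 CPM, and the FACIT part is widest in the iohexol samples.

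The summed level of all collagen transcripts differed by drug. It was 4202, 5365 and 5578 CPM in the control samples, 5105, 5295 and 4123 CPM with iohexol, 2105, 2125 and 2197 CPM with cisplatin, and 7224, 6813 and 7285 CPM with vancomycin. The cisplatin samples lay below and the vancomycin samples above every control sample, while iohexol and control overlapped. These sums and the shares that follow were not tested. The make-up differed as well as the sum. The basement membrane network took 51.1% ± 1.51 of collagen counts in the control, 38.5% ± 2.50 with iohexol, 37.7% ± 0.979 with cisplatin and 42.3% ± 1.07 with vancomycin, and no drug sample reached the lowest control sample. FACIT genes took 6.78% ± 0.927 in the control, 29.1% ± 3.86 with iohexol, 12.3% ± 0.232 with cisplatin and 7.56% ± 0.0684 with vancomycin. In bulk RNA, fewer cells that express a gene and less of its RNA per cell cannot be told apart.

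Some libraries stood apart in a way that touches these genes. Among the 17 collagen genes of at least 10 CPM, 14 lay below their group mean in control 1 and 15 in iohexol 3, with median deviations of -0.23 and -0.23 on the log2 scale, against -0.04 to 0.14 in the other 10 samples. Across all genes, the 3414 genes richest in GC (at least 58.3%) had median deviations of -0.17 in control 1 and -0.24 in iohexol 3, and the 3414 poorest (at most 42.1%) of 0.12 and 0.18. The 26 tested collagen genes have a median transcript GC content of 58.7% (46.0% to 66.9%). The comparison of iohexol with the control is therefore also given with offsets for the GC trend of each library and without both libraries, and the comparisons between drugs with the offsets, alternatives chosen after seeing the data.

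**Figure D2:**
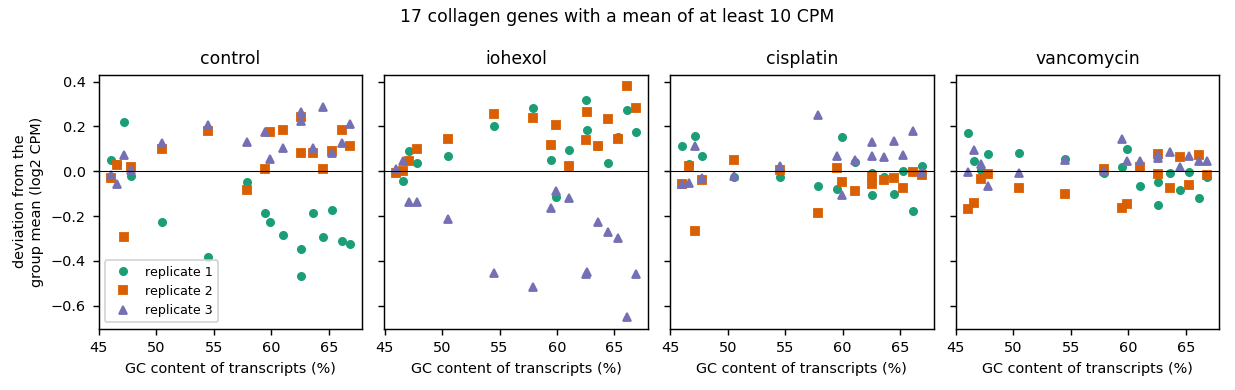
Deviation of each of the 17 collagen genes of at least 10 CPM from its group mean (log2 CPM, vertical axis) against the GC content of its transcripts (%, horizontal axis), in 1 panel per group, with 1 symbol per replicate. In control replicate 1 and iohexol replicate 3 the GC-rich genes lie below 0, and the 3 samples of the cisplatin and vancomycin groups lie closer together.

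Several collagen genes lie beside each other in the genome. COL4A1 and COL4A2 run head to head on chromosome 13, with overlapping gene models and 126 bases between their RefSeq starts, and COL4A4 with COL4A3 on chromosome 2 and COL4A6 with COL4A5 on chromosome X are arranged the same way, 0.111 and 0.346 kb apart. COL6A1 and COL6A2 lie in tandem on chromosome 21, 93.0 kb apart. In the promoter windows of RefSeq (250 bases before to 50 after a start, 44 windows of 32 collagen genes), the GC box GGGCGG was found on either strand in 54.5% of the windows, against 45.0% of all 35116 windows, CCAAT in 31.8% against 34.6%, the TATA box TATAAA in 18.2% against 11.5% and the AP-1 element TGANTCA in 2.27% against 7.71%. The sequences just upstream are shown for 3 genes on which the results below turn, COL6A2, which rose with vancomycin and fell with the other drugs, COL5A1, which moved the same way but further, and COL12A1, which moved in the opposite directions. They are printed 5′ to 3′ on the strand of the gene from RefSeq's GRCh38.p14, without transcribed exon bases. Capitals mark matches on either strand to the motifs named above (GGGCGG reads CCGCCC on the other strand).
COL6A2 (chr21:46097862-46098096, plus strand): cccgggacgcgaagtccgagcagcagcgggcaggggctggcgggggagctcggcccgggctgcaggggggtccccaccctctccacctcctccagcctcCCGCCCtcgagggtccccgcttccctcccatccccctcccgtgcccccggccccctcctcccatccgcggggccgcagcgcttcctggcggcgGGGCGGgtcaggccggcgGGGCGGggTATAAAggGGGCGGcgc
COL5A1 (chr9:134641553-134641773, plus strand): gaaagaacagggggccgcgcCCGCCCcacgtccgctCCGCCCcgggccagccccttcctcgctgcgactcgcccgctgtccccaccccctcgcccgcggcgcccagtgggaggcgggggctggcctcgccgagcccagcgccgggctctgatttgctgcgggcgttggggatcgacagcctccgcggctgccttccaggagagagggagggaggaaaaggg
COL12A1 (chr6:75206054-75206303, minus strand): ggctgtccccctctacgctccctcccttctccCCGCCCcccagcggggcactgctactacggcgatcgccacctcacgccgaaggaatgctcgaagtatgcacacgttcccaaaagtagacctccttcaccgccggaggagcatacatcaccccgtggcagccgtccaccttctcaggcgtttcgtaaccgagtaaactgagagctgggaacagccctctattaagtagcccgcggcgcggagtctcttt
The 235 bases before COL6A2 hold 4 GC boxes and 1 TATA box with a GC content of 79.6%, the 221 bases before COL5A1 hold 2 GC boxes at 75.6%, and the 250 bases before COL12A1 hold 1 GC box at 61.2%. No CCAAT box or AP-1 element was found in these windows, which says only that those letters are not there.

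Against the control, the 3 drugs differed in how many collagen genes changed and in which direction. A gene was called when its adjusted p was under 0.05 (edgeR's quasi-likelihood test, Benjamini-Hochberg over all genes tested) and was a differentially expressed gene (DEG) when its log2 fold change was also above 1 or below -1. With iohexol, 2 of the 22 collagen genes tested rose, 5 fell and 15 were not called, so that 31.8% were called against a background of 21.0% of 15657 genes (11.2% higher and 9.77% lower). There 2 were up-regulated and 1 was a down-regulated DEG, 13.6% against 5.28% of all genes. With cisplatin, 3 of 21 rose, 15 fell and 3 were not called, 85.7% against 59.8% of 15876 genes (29.2% higher and 30.6% lower), and 1 up-regulated and 10 down-regulated DEGs made 52.4% against 16.3%. With vancomycin, 18 of 25 rose, 3 fell and 4 were not called, 84.0% against 57.9% of 15819 genes (29.0% higher and 28.8% lower), and 10 up-regulated and 3 down-regulated DEGs made 52.0% against 18.5%. COL9A1, COL9A3, COL26A1 and COL28A1 passed the filter through the vancomycin samples alone, where they are high, so their place among the 18 carries little weight. Without these 4 genes, 14 of 21 rose and 3 fell with vancomycin, with 6 up-regulated and 3 down-regulated DEGs (42.9%) and a median log2 fold change of 0.41. Among the 3 that fell, COL11A1 and COL17A1 reached 10 counts in every control sample but not in every vancomycin sample. They passed the filter there through the controls, where they are high, so their place among the 3 carries little weight as well. COL24A1 passed through the iohexol samples alone, where it is high. The median log2 fold change of the collagen genes was -0.31 with iohexol, -0.77 with cisplatin and 0.48 with vancomycin, beside 0.01, 0.01 and -0.01 over all genes tested. The 3 comparisons share their control samples, so their values stand side by side and are not independent.

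**Figure D3:**
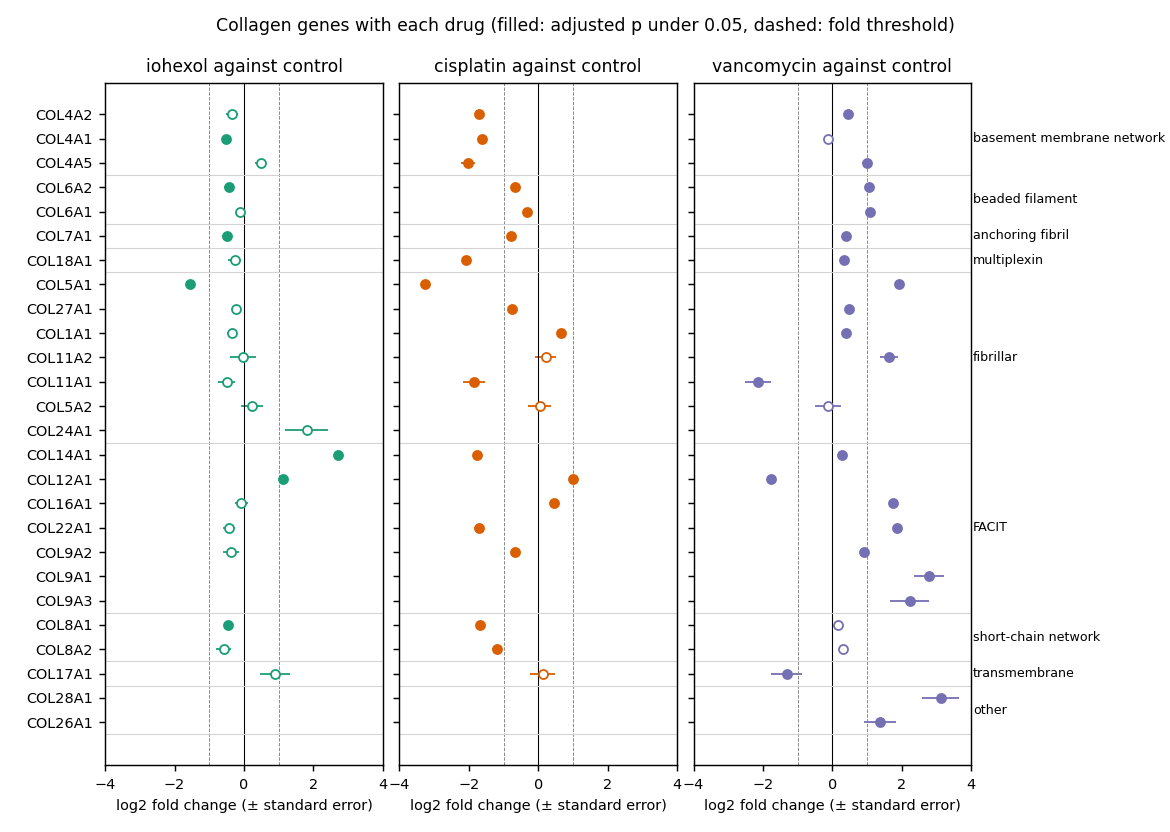
Log2 fold change against the control (horizontal axis, ± standard error) of the collagen genes tested with iohexol, cisplatin and vancomycin, grouped by class, with filled points for adjusted p under 0.05 and dashed lines at 1 and -1. Most cisplatin points lie left of 0 and most vancomycin points right of 0, with COL12A1 and COL1A1 right of 0 under cisplatin and COL12A1, COL11A1 and COL17A1 left of -1 under vancomycin.

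The 2 main chains of the basement membrane, COL4A1 (ENSG00000187498, chr13:110148963-110307233) and COL4A2 (ENSG00000134871, chr13:110305812-110513209), fell about 3-fold with cisplatin and parted from each other with vancomycin. COL4A1 was at 1105, 1383 and 1410 CPM in the control, 922, 971 and 760 with iohexol, 411, 433 and 412 with cisplatin and 1278, 1146 and 1202 with vancomycin. The cisplatin and iohexol samples lay below all control samples, and the vancomycin samples among them. The log2 fold changes were -0.52 with iohexol (standard error 0.11, adjusted p = 0.00707 by edgeR), -1.62 with cisplatin (0.07, adjusted p = 5.09e-12) and -0.13 with vancomycin (0.09, adjusted p = 0.219, which turns into a call at -0.24 with adjusted p = 0.0182 when control 1 is left out).

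COL4A2 was at 962, 1422 and 1448 CPM in the control, 1093, 1134 and 694 with iohexol, 380, 388 and 393 with cisplatin and 1846, 1658 and 1838 with vancomycin. Every vancomycin sample was above and every cisplatin sample below the control samples. It fell by 1.71 on the log2 scale with cisplatin (standard error 0.10, adjusted p = 2.2e-10 by edgeR) and rose by 0.45 with vancomycin (0.11, adjusted p = 0.00132, but 0.27 with the GC offsets and 0.28 without control 1), and with iohexol its -0.35 was not called (adjusted p = 0.194), though it was with the GC offsets (-0.37, adjusted p = 0.0312). The ratio of COL4A1 to COL4A2 per length was 1.35 ± 0.133 in the control, 1.22 ± 0.185 with iohexol, 1.42 ± 0.0449 with cisplatin and 0.889 ± 0.0287 with vancomycin, where all 3 samples (0.906, 0.905 and 0.856) were below each of the other 9.

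COL4A5 (chrX:108439844-108697545), the chain mutated in X-linked Alport syndrome, was far lower than COL4A1 and COL4A2, at 0.863 ± 0.154 RPKM in the control. Its levels were 11.8, 8.25 and 10.7 CPM in the control, 14.8, 14.3 and 12.6 with iohexol, 2.76, 2.02 and 2.67 with cisplatin and 20.8, 20.2 and 21.2 with vancomycin. It fell 4.06-fold with cisplatin (log2 fold change -2.02, standard error 0.19, adjusted p = 8.45e-08 by edgeR) and rose 1.98-fold with vancomycin (adjusted p = 2.32e-06), just under the threshold for a DEG, which it passed with the GC offsets. With iohexol all 3 samples were above the control samples, at a log2 fold change of 0.48 and an adjusted p of 0.053. COL4A3, COL4A4 and COL4A6 were not tested.

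The beaded filament genes COL6A1 (chr21:45981737-46005050) and COL6A2 (chr21:46098097-46132849) doubled with vancomycin and fell with cisplatin. COL6A1 was at 252, 302 and 307 CPM in the control, 276, 276 and 218 with iohexol, 223, 222 and 238 with cisplatin and 618, 591 and 661 with vancomycin. COL6A2 was at 309, 371 and 368 CPM in the control, 275, 273 and 201 with iohexol, 219, 208 and 230 with cisplatin and 737, 709 and 774 with vancomycin. For both genes the vancomycin samples were above and the cisplatin samples below all controls.

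With vancomycin COL6A1 rose by 1.09 (standard error 0.09, adjusted p = 4.32e-10 by edgeR) and COL6A2 by 1.05 (0.09, adjusted p = 5.01e-10) on the log2 scale. With the GC offsets the changes were 0.80 and 0.79, so that neither was a DEG there, and COL6A2 was no DEG without control 1 or with library size only, at 0.97 in each. With cisplatin COL6A1 fell by 0.32 (adjusted p = 0.000694), a call that was lost with library size only in place of TMM (-0.10, adjusted p = 0.211), and COL6A2 fell by 0.66 (adjusted p = 2.63e-07). With iohexol COL6A2 fell by 0.45 (adjusted p = 0.0236), which was lost without control 2 (0.0807) or control 3 (0.0659) and with library size only (0.0509), and COL6A1 was not called at -0.12 (adjusted p = 0.476). The ratio of COL6A1 to COL6A2 per length was 0.828 ± 0.0114 in the control and 0.849 ± 0.0106 with vancomycin, and 1.04 ± 0.0441 with iohexol and 1.05 ± 0.0238 with cisplatin, with no overlap between the latter 2 groups and the former 2. COL6A3 had 1 to 4 counts per control sample and at most 11 in any sample.

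COL7A1 (chr3:48564073-48595267), which forms the anchoring fibrils that tie the basement membrane to the tissue below, rose with vancomycin and fell with the other drugs. It was at 446, 550 and 667 CPM in the control, 392, 448 and 317 with iohexol, 299, 313 and 351 with cisplatin and 706, 781 and 757 with vancomycin. The iohexol samples overlapped the controls, the cisplatin samples were below and the vancomycin samples above them. It fell by 0.48 with iohexol (standard error 0.15, adjusted p = 0.0365 by edgeR) and by 0.77 with cisplatin (0.10, adjusted p = 3.43e-06) and rose by 0.40 with vancomycin (0.10, adjusted p = 0.00229). The iohexol call was lost without control 2 (adjusted p = 0.0709), control 3 (0.127) or iohexol 1 (0.0821), and the vancomycin call with the GC offsets (log2 fold change 0.14, adjusted p = 0.124). Without control 1 the vancomycin change was 0.27.

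COL18A1 (chr21:45405137-45513720), the multiplexin whose end fragment is endostatin, fell about 4-fold with cisplatin. It was at 380, 515 and 550 CPM in the control, 428, 460 and 276 with iohexol, 115, 112 and 113 with cisplatin and 606, 609 and 637 with vancomycin. The cisplatin samples lay together, well below all others. It fell 4.20-fold with cisplatin (log2 fold change -2.07, standard error 0.10, adjusted p = 8.24e-12 by edgeR) and was not called with iohexol (-0.27, adjusted p = 0.304). With vancomycin it rose by 0.33 (adjusted p = 0.00903), a call that was lost with the GC offsets (0.12, adjusted p = 0.165) and without control 1 (0.18, adjusted p = 0.0634). Its exons overlap those of SLC19A1 on the opposite strand over 16.4% of their length, and without a stated strand setting reads there cannot be told apart, SLC19A1 having 6283 counts over the 12 samples against 73907.

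**Figure D4:**
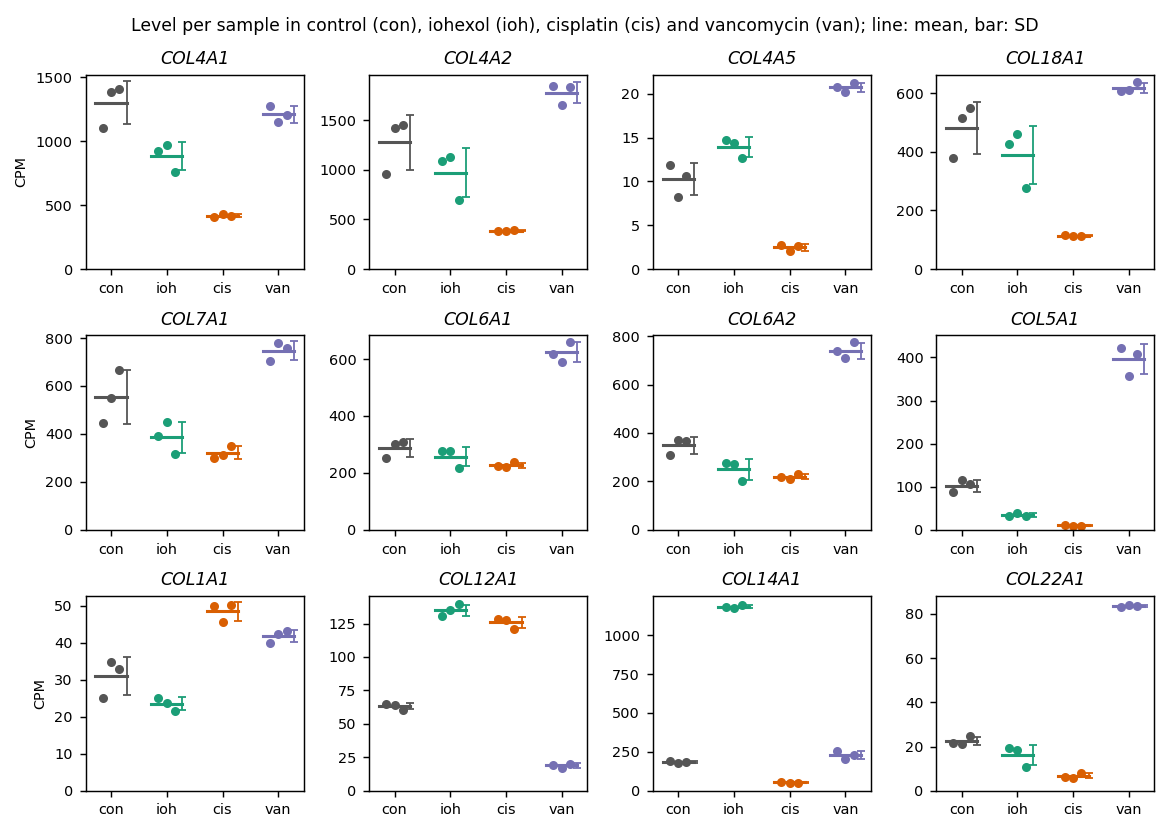
CPM in each sample (points, linear axes from 0) of 12 collagen genes in the control, iohexol, cisplatin and vancomycin groups, with the mean (line) and SD (bar). COL5A1 runs from 9.69 CPM with cisplatin to 423 with vancomycin, COL14A1 is at 1177 to 1193 CPM in the iohexol samples and at most 258 in the others, and COL12A1 is lowest with vancomycin.

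Among the fibrillar genes, COL5A1 (ENSG00000130635, chr9:134641774-134844843) had the widest range. This chain of type V starts fibrils and regulates their diameter. It was at 86.9, 115 and 106 CPM in the control, 31.3, 39.2 and 31.8 with iohexol, 11.6, 10.1 and 9.69 with cisplatin and 423, 357 and 407 with vancomycin. No sample of any group overlapped those of another. It fell 2.92-fold with iohexol (log2 fold change -1.55, standard error 0.13, adjusted p = 5.87e-06 by edgeR) and 9.67-fold with cisplatin (-3.27, standard error 0.11, adjusted p = 1.36e-13), and rose 3.78-fold with vancomycin (1.92, standard error 0.10, adjusted p = 1.49e-13). Its partner COL5A2 stayed between 13 and 23 counts in all 12 samples and was not called with any drug, with log2 fold changes of 0.22 ± 0.32 with iohexol, 0.04 ± 0.33 with cisplatin and -0.13 ± 0.37 (standard errors) with vancomycin, and COL5A3 had at most 4 counts.

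COL1A1 (chr17:50183289-50201632), the main chain of type I collagen, moved apart from COL5A1 with cisplatin. It was at 25.0, 34.7 and 32.9 CPM in the control, 25.1, 23.8 and 21.6 with iohexol, 49.9, 45.6 and 50.1 with cisplatin and 40.0, 42.4 and 43.1 with vancomycin. The cisplatin and vancomycin samples were above all controls. It rose 1.58-fold with cisplatin (log2 fold change 0.66, standard error 0.10, adjusted p = 2.5e-05 by edgeR) and 1.32-fold with vancomycin (0.41, adjusted p = 0.00492), the latter lost with the GC offsets (0.10, adjusted p = 0.346), and its -0.36 with iohexol was not called (adjusted p = 0.0829). Per length, COL1A1 stood at 0.343 ± 0.0135 of COL5A1 in the control, 0.793 ± 0.111 with iohexol, 5.31 ± 0.524 with cisplatin and 0.121 ± 0.0138 with vancomycin. COL1A2, the chain that completes common type I collagen, had at most 5 counts in a sample.

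COL27A1 (chr9:114155560-114312511), a fibrillar gene best known from cartilage, fell with cisplatin and rose with vancomycin. It was at 75.2, 86.0 and 96.7 CPM in the control, 73.8, 77.2 and 63.6 with iohexol, 47.5, 50.6 and 52.5 with cisplatin and 124, 109 and 135 with vancomycin, with the cisplatin samples below and the vancomycin samples above all controls. It fell by 0.76 on the log2 scale with cisplatin (adjusted p = 5.81e-07 by edgeR), rose by 0.48 with vancomycin (adjusted p = 0.000315, but 0.18 and 0.0483 with the GC offsets) and was not called with iohexol (-0.23, adjusted p = 0.184).

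The 2 type XI chains, minor fibril components, were scarce and went opposite ways with vancomycin. COL11A1 had 47, 41 and 40 counts in the control, 30, 34 and 26 with iohexol, 12, 16 and 11 with cisplatin and 12, 5 and 14 with vancomycin, and it fell with cisplatin (log2 fold change -1.86, standard error 0.31, adjusted p = 6.62e-05 by edgeR) and with vancomycin (-2.15, 0.37, adjusted p = 2.73e-05). COL11A2 had 26, 31 and 31 counts in the control, 45, 24 and 16 with iohexol, 23, 54 and 36 with cisplatin and 70, 116 and 107 with vancomycin, and it rose with vancomycin (1.63, standard error 0.25, adjusted p = 6.36e-06) but was not called with iohexol (-0.03, 0.968) or cisplatin (0.22, 0.562). COL24A1 had 5, 0 and 8 counts in the control and 17, 15 and 14 with iohexol, a ratio of 3.48 with an exact 95% counting interval from 1.85 to 7.02, and its adjusted p was 0.0624. It was tested against the control with iohexol alone. Such intervals cover counting error only.

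The FACIT genes moved in different directions under the same drug. COL14A1 (chr8:120059780-120372036), which binds to the surface of fibrils, went from 191, 181 and 182 CPM in the control to 1181, 1177 and 1193 with iohexol, where it alone made up 24.8% ± 3.63 of all collagen counts, against 3.73% ± 0.709 in the control. With cisplatin it was at 57.7, 51.4 and 51.4 CPM and with vancomycin at 258, 204 and 229. The iohexol samples lay above and the cisplatin samples below those of every other group. It rose 6.57-fold with iohexol (log2 fold change 2.72, standard error 0.08, adjusted p = 4.22e-09 by edgeR) and fell 3.42-fold with cisplatin (-1.77, standard error 0.07, adjusted p = 1.06e-12), and its rise of 0.29 with vancomycin (adjusted p = 0.0112) was lost with library size only in place of TMM (0.21, adjusted p = 0.0541), without control 2 (0.26, 0.0574) and without vancomycin 1 (0.20, 0.081).

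COL12A1 (ENSG00000111799, chr6:75084326-75206051), a long FACIT member that bridges fibrils, was the collagen gene with calls opposite to COL5A1 for each of the 3 drugs. It was at 64.7, 64.5 and 60.7 CPM in the control, 131, 135 and 139 with iohexol, 129, 128 and 121 with cisplatin and 19.5, 17.1 and 20.2 with vancomycin. It doubled in the iohexol and cisplatin samples and dropped below every other sample with vancomycin. The log2 fold changes were 1.13 with iohexol (standard error 0.09, adjusted p = 3.41e-06 by edgeR), 1.01 with cisplatin (0.07, adjusted p = 7.74e-10) and -1.77 with vancomycin (0.11, adjusted p = 2.05e-12). The cisplatin value lay at the fold threshold, and COL12A1 was no longer a DEG there without control 3, cisplatin 1 or cisplatin 2 or with no filter on low counts.

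COL16A1 (chr1:31652247-31704319) and COL22A1 (chr8:138588235-138914006), the latter known from tissue junctions such as that of muscle and tendon, both rose with vancomycin and parted with cisplatin. COL16A1 was at 36.9, 49.8 and 56.5 CPM in the control, 48.9, 51.8 and 31.6 with iohexol, 60.4, 64.0 and 71.3 with cisplatin and 148, 173 and 172 with vancomycin. COL22A1 was at 21.8, 21.2 and 24.6 CPM in the control, 19.2, 18.6 and 11.0 with iohexol, 6.41, 5.88 and 8.02 with cisplatin and 82.9, 83.9 and 83.6 with vancomycin. The vancomycin samples of both genes were far above all others, and the cisplatin samples lay above the controls for COL16A1 and below them for COL22A1. COL16A1 rose by 1.75 with vancomycin (standard error 0.12, adjusted p = 7.73e-12 by edgeR) and by 0.46 with cisplatin (adjusted p = 0.00173, but 0.31 without control 1), and COL22A1 rose by 1.86 with vancomycin (0.10, adjusted p = 2.83e-13) and fell by 1.72 with cisplatin (0.13, adjusted p = 4.76e-09). Neither was called with iohexol, at -0.08 (adjusted p = 0.812) and -0.43 (adjusted p = 0.123).

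The type IX genes, partners of type II in cartilage, were unequal in level. COL9A2 (chr1:40300487-40317813) was at 14.8, 20.8 and 19.99 CPM in the control, 15.9, 17.1 and 8.32 with iohexol, 10.2, 11.6 and 13.1 with cisplatin and 33.1, 37.9 and 37.1 with vancomycin, highest with vancomycin and below all controls with cisplatin. It rose by 0.93 on the log2 scale with vancomycin (adjusted p = 1.08e-06 by edgeR), fell by 0.66 with cisplatin (adjusted p = 0.000497) and was not called with iohexol (-0.39, adjusted p = 0.263). COL9A1 had 3, 6 and 5 counts in the control and 43, 32 and 31 with vancomycin, a ratio of 7.18 (exact 95% counting interval 4.10 to 13.6, adjusted p = 5.86e-06), and COL9A3 had 3, 2 and 3 against 15, 12 and 15, a ratio of 4.98 (2.31 to 12.3, adjusted p = 0.00169). COL19A1, COL20A1 and COL21A1 were not tested.

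The short-chain network genes COL8A1 (chr3:99638475-99799226) and COL8A2 (chr1:36095236-36125220), which form the hexagonal lattice seen in the cornea and vessel walls, fell with cisplatin. COL8A1 was at 189, 195 and 193 CPM in the control, 138, 144 and 122 with iohexol, 62.4, 57.9 and 58.1 with cisplatin and 232, 218 and 210 with vancomycin. COL8A2 was at 20.7, 34.0 and 33.5 CPM in the control, 23.3, 20.6 and 13.5 with iohexol, 12.7, 12.3 and 13.4 with cisplatin and 36.2, 37.2 and 39.0 with vancomycin. With cisplatin the log2 fold changes were -1.68 (standard error 0.06, adjusted p = 6.71e-13 by edgeR) and -1.19 (0.15, adjusted p = 2.4e-06). With iohexol COL8A1 fell by 0.48 (adjusted p = 0.00283) and COL8A2 was not called at -0.58 (adjusted p = 0.0715). With vancomycin the samples of both genes were above all controls, but the changes of 0.16 (adjusted p = 0.106) and 0.32 (adjusted p = 0.0531) missed the threshold, COL8A1 passing it with the GC offsets (0.00746). COL8A2 passed it with limma-voom (0.0372) among other alternatives, but was at 0.024 with the GC offsets (adjusted p = 0.857) and at 0.12 without control 1.

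The remaining tested genes were scarce. COL17A1 (chr10:104031286-104085957), the hemidesmosome collagen of epithelia, had 14, 25 and 15 counts in the control, 55, 26 and 18 with iohexol, 27, 14 and 24 with cisplatin and 7, 10 and 6 with vancomycin. It fell with vancomycin (log2 fold change -1.31, standard error 0.45, adjusted p = 0.0159 by edgeR), a call that was lost without control 2 (adjusted p = 0.119), vancomycin 1 (0.052) or vancomycin 3 (0.0711), and was not called with iohexol (0.90, 0.164) or cisplatin (0.12, 0.778). COL28A1 had 4, 2 and 2 counts in the control and 25, 17 and 37 with vancomycin, a ratio of 9.36 (exact 95% counting interval 4.53 to 22.4, adjusted p = 2.31e-05), and 3.87% of its transcript sequence is shared with other genes. COL26A1 had 4, 6 and 7 counts against 17, 16 and 15, a ratio of 2.68 (1.51 to 4.97, adjusted p = 0.016), and this call was lost without control 1 (0.0659) or control 2 (0.0586). COL13A1, COL23A1 and COL25A1 had at most 6 counts in a sample.

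The iohexol counts depended on the libraries that stood apart. The number of collagen genes that were lower was 8 without control 1 and 3 without control 2 or control 3, and the number that were higher was 6 without iohexol 3. Without control 1 and iohexol 3 together, 6 collagen genes were higher and 10 lower, against 16.4% and 18.2% of 15948 genes, and with the GC offsets 4 were higher and 13 lower, where the background was 17.2% higher and 19.1% lower of 15657 genes. With the offsets COL4A2, COL18A1, COL6A1, COL27A1, COL1A1, COL22A1, COL8A2 and COL9A2 joined the genes that were lower and COL4A5 and COL24A1 those that were higher, COL24A1 having passed the filter through the iohexol samples alone. Without both libraries, COL17A1 was also higher (log2 fold change 1.09, adjusted p = 0.0399). The 6 higher genes there, and the 6 without iohexol 3, include a gene that was not tested in the main comparison. That gene passed the filter through the iohexol samples once iohexol 3 was left out, so its place carries little weight. These counts of 6 are therefore not out of the genes tested in the main comparison. COL14A1, COL12A1 and COL5A1 were DEGs under both alternatives. With cisplatin 3 were higher and 15 lower with the offsets as without, against 31.7% and 32.8% of all genes. With vancomycin 16 of the 25 tested were higher and 3 lower, against 29.9% and 29.3% of all genes. COL9A1, COL9A3, COL26A1 and COL28A1, which passed the filter through the vancomycin samples alone, are among these 16 and carry little weight. GC-rich genes in general were higher with vancomycin, those of at least 58.3% GC having a median log2 fold change of 0.31 and those of at most 42.1% one of -0.29, and apart from these offsets its part in the collagen results was not tested.

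Compared directly, most collagen genes were higher with vancomycin than with cisplatin. In a fit of all 12 samples, 20 of the 26 collagen genes tested were higher and 2 lower with vancomycin than with cisplatin, 84.6% against a background of 64.7% of 17073 genes. COL9A1, COL9A3, COL26A1 and COL28A1 are 4 of the 20, and without them and COL24A1, 16 of 21 were higher and 2 lower. With the GC offsets 20 were higher, COL9A1, COL9A3, COL26A1 and COL28A1 among them, and 3 lower, against 68.8% of all genes called. COL1A1 joined those lower with vancomycin. The difference was 5.23 on the log2 scale for COL5A1 (37.6-fold, standard error 0.13, adjusted p = 1.37e-16 by edgeR), 3.62 for COL22A1, 3.05 for COL4A5 and 2.44 for COL18A1. COL12A1 was 6.67-fold lower (-2.74, standard error 0.09, adjusted p = 1.9e-15) and COL17A1 2.64-fold lower (adjusted p = 0.0167). COL1A1 (-0.22 ± 0.11), COL11A1 (-0.26 ± 0.39), COL5A2 (-0.13 ± 0.32) and COL24A1 (-0.95 ± 0.66, standard errors) were not called. All 4 are fibrillar genes, but COL11A1, COL5A2 and COL24A1 were scarce, and COL1A1 was called with the GC offsets.

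Vancomycin against iohexol gave 19 higher and 5 lower, 92.3% against 56.6%, and the same counts with the GC offsets, against 60.0%. In both fits COL9A1, COL26A1 and COL28A1 are among those higher and COL24A1 among those lower. These genes were tested against the control with a single drug, as was COL9A3, and without all of them 16 of 21 were higher and 4 lower. The genes lower with vancomycin were COL12A1 (-2.84), COL14A1 (-2.37), COL17A1 (-2.16), COL24A1 (-1.97) and COL11A1 (-1.59). COL5A2 and COL9A3 were not called (adjusted p = 0.458 and 0.246 by edgeR). Cisplatin against iohexol gave 2 higher and 13 lower, 57.7% against 54.0%, a share near the background. Without COL9A1, COL9A3, COL24A1, COL26A1 and COL28A1, 2 of 21 were higher and 11 lower with cisplatin. The genes higher with cisplatin were COL1A1 (1.04, adjusted p = 1.55e-07) and COL16A1 (0.56, adjusted p = 0.00373), COL14A1 was 22.2-fold lower (-4.47, standard error 0.10, adjusted p = 1.84e-17), and COL6A1, COL6A2, COL7A1 and COL12A1 did not pass the threshold, at -0.18, -0.19, -0.27 and -0.10. With the GC offsets COL6A1 (-0.24, adjusted p = 0.000417), COL6A2 (-0.24, 0.000576) and COL7A1 (-0.33, 0.00037) were lower with cisplatin, so that 16 genes were, and 59.5% of all genes were called.

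The genes that make, bind and break down collagen were counted from lists chosen by function, in the same comparisons, where 21.0% of all genes were called with iohexol, 59.8% with cisplatin and 57.9% with vancomycin. The chain-modifying enzymes, which hydroxylate and glycosylate the chains, mostly fell with cisplatin and rose with vancomycin. Of 15 tested, 9 were lower with iohexol and 6 not called, 13 were lower and 1 higher with cisplatin, and 12 were higher and 3 not called with vancomycin. P4HA2, a prolyl hydroxylase subunit, was at 113, 125 and 125 CPM in the control, 79.8, 80.8 and 75.0 with iohexol, 72.7, 71.4 and 75.7 with cisplatin and 330, 357 and 366 with vancomycin. Its log2 fold change was -0.59 with iohexol (adjusted p = 0.000625 by edgeR) and -0.71 with cisplatin (6.17e-08), and it rose 2.84-fold with vancomycin (5.74e-13). Its relative P4HA3 changed by -1.46, -1.65 and 2.15, the collagen galactosyltransferase COLGALT2 by -0.59 (not called), -2.01 and 1.04, and the prolyl isomerase PPIB by -0.41, -0.29 and 1.61. COLGALT2 was scarce, with 13, 20 and 19 counts in the control and 4, 4 and 6 with cisplatin, and passed the filter there through the controls.

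Of the 8 folding and export genes, 4 were lower with iohexol and 4 not called, 4 were lower and 1 higher with cisplatin, and 5 were higher and 1 lower with vancomycin. The 62.5% called with cisplatin is near the share of all genes. SERPINH1, the collagen chaperone HSP47, was at 319, 345 and 332 CPM in the control, 251, 239 and 203 with iohexol, 234, 243 and 237 with cisplatin and 695, 777 and 806 with vancomycin, log2 fold changes of -0.49, -0.47 and 1.16 (adjusted p = 0.00345, 1.47e-06 and 4.54e-11 by edgeR). The chaperone FKBP10 changed by -0.57, -0.45 and 1.06 and SEC24D, a coat protein of export vesicles, by -0.29, -1.06 and 0.57, all called.

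Of the 13 tested genes that remove propeptides or cross-link the chains, 2 were higher and 4 lower with iohexol, 1 and 11 with cisplatin, and 8 and 3 with vancomycin. The lysyl oxidase LOXL2, which cross-links type IV collagen, was at 702, 843 and 858 CPM in the control and 150, 153 and 161 with cisplatin, 5.12-fold lower (log2 fold change -2.36, standard error 0.07, adjusted p = 7e-14 by edgeR), and rose by 0.64 with vancomycin. ADAMTS3, a procollagen N-proteinase, rose by 0.42 with iohexol and fell by 1.17 with cisplatin and by 2.02 with vancomycin, while its relative ADAMTS14 fell by 3.29 with cisplatin and rose by 1.14 with vancomycin. ADAMTS14 was scarce, with 27, 49 and 70 counts in the control and 5, 6 and 5 with cisplatin, and passed the filter there through the controls. TLL2, of the tolloid family, fell by 2.67 with cisplatin and by 0.79 with vancomycin. ADAMTS2 was not tested.

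Of the 5 tested collagen receptors, 2 were higher and 1 lower with iohexol, 4 were lower and 1 not called with cisplatin, and 3 were higher and 2 not called with vancomycin, the last near the share of all genes. ITGA1 was at 10.7, 10.7 and 10.1 CPM in the control, 13.5, 13.2 and 16.1 with iohexol, 4.19, 3.61 and 4.04 with cisplatin and 42.1, 36.1 and 36.8 with vancomycin, log2 fold changes of 0.48, -1.39 and 1.84, all called by edgeR. ITGA2 rose by 0.74 with iohexol and by 2.41 with vancomycin, and DDR2 fell by 3.57 with cisplatin, from 0.949, 1.21 and 0.993 CPM in the control to 0.120, 0.0613 and 0.0594. For DDR2 these are 13, 19 and 15 counts against 2, 1 and 1. It passed the filter there through the controls, where it is high, and the size of its fall is uncertain. The breakdown genes had the largest medians of the 5 lists with each drug. Of 6 tested, 3 were lower and 3 not called with iohexol, 1 was higher and 5 lower with cisplatin, and all 7 tested were higher with vancomycin, 6 of them DEGs. MMP2 was scarce, with 13, 14 and 22 counts in the control and 9, 6 and 3 with cisplatin, as was MMP9, with 20, 26 and 19 against 9, 5 and 9. Both passed the filter with iohexol and cisplatin through the controls, where they are high. Their place in those counts and medians carries little weight. MMP13 passed the filter through the vancomycin samples alone, and without it all 6 were higher, 5 of them DEGs, with a median log2 fold change of 2.58. The collagenase MMP1 was at 31.4, 35.8 and 31.2 CPM in the control, 18.5, 12.3 and 18.3 with iohexol, 7.61, 7.41 and 9.51 with cisplatin and 338, 426 and 390 with vancomycin, log2 fold changes of -0.97, -1.99 and 3.52 (adjusted p = 0.000946, 1.69e-10 and 4.33e-18 by edgeR). With vancomycin MMP13, MMP2 and MMP9 rose by 4.58, 4.15 and 3.25, from control means of 0.641, 1.10 and 1.46 CPM.

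**Figure D5:**
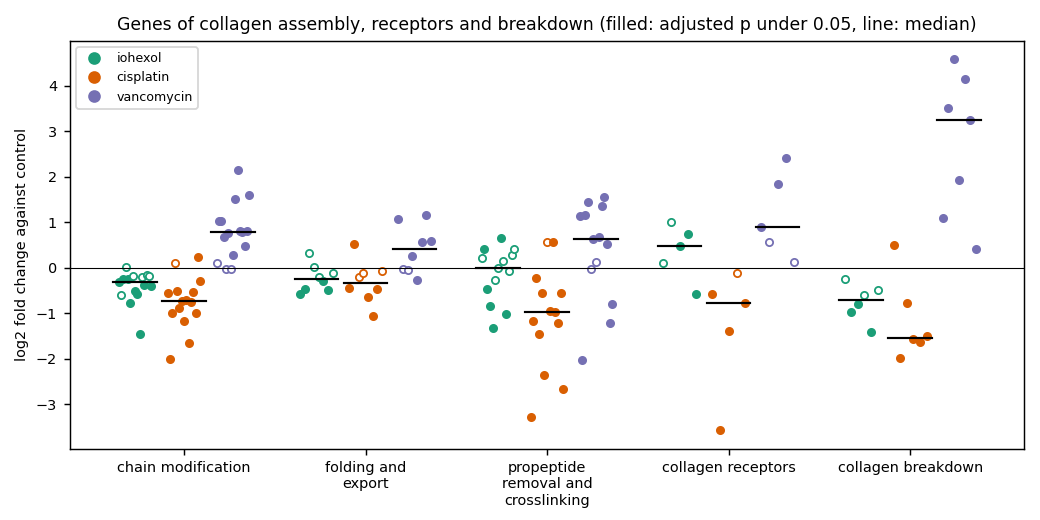
Log2 fold change against the control (vertical axis) of the tested genes of 5 lists, for chain modification, folding and export, propeptide removal and crosslinking, receptors and breakdown, with iohexol, cisplatin and vancomycin. Each point is a gene, filled for adjusted p under 0.05, and each line is the median, which for breakdown genes is -0.70, -1.54 and 3.25. These medians include MMP2 and MMP9, which passed the filter through the controls with iohexol and cisplatin, and, for vancomycin, MMP13, which passed through the vancomycin samples.

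Markers of other cells moved with some of these results. The summed level of 8 fibroblast and stroma markers lay between 202 and 237 CPM with vancomycin and between 84.2 and 106 in the control, with 83.5 to 95.1 for iohexol and 59.1 to 60.9 for cisplatin, made up mostly of LUM (69.4 to 91.9 CPM in the control and 169 to 198 with vancomycin) and DCN (11.9 to 12.7 and 28.4 to 34.4), both small proteoglycans that bind collagen. The defining stroma markers PDGFRA, FAP and TCF21 had at most 5 counts in any sample, while ACTA2 went from 3, 5 and 6 counts in the control to 14, 28 and 37 with vancomycin and PDGFRB from 10, 8 and 9 to 18, 19 and 27, and THY1 was at 10, 7 and 13 counts against 11, 9 and 10. The 4 endothelial markers summed to at most 4.21 CPM and the 4 leukocyte markers to at most 1.21 CPM. The summed level of the 10 proximal tubule markers was also higher with vancomycin, at 911 to 955 CPM, against 308 to 356 in the control. It was 335 to 390 CPM with iohexol and 237 to 252 with cisplatin. This sum was carried by GGT1 and DPP4. In the control and with vancomycin alike, 4 of the 10 reached 1 CPM and 3 had at most 3 counts in a sample, so the sum does not describe the whole list. The 6 general epithelial markers summed to between 877 and 989 CPM in the control, against 1291 to 1414 with vancomycin, 1355 to 1434 with cisplatin and 699 to 862 with iohexol, with CDH1 at no more than 0.508 CPM in any sample. KRT8 and KRT18 made up most of this sum, while EPCAM averaged 102 CPM in the control, 35.3 with cisplatin and 76.9 with vancomycin, and KRT7 went from 120.1 in the control to 68.9 with vancomycin. Whether stromal RNA has a part in the vancomycin results was not tested. The share of counts on mitochondrial genes was 4.14% to 4.38% with vancomycin, against 5.03% to 5.73% in the control, 5.36% to 5.49% with cisplatin and 5.27% to 6.20% with iohexol.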

How the data were processed

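RNA of 12 HK-2 samples was sequenced from poly(A)-selected libraries. The authors deposited raw counts of reads per gene, whole numbers without normalization, with gene positions, lengths and biotypes. The submitters' processing notes name CASAVA 1.8, fastp, HISAT2 2.0.5, featureCounts 1.5.0-p3 and DESeq2 1.20.0, without their order. The genome build and the strand setting are not given in the sources used here, and the positions of all 44 collagen genes equal those of GENCODE release 29 on GRCh38.

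The counts were tested with edgeR 4.0.16 in R 4.3.3 (glmQLFit and glmQLFTest, TMM, filterByExpr with a minimum count of 10 and a minimum total of 15). Each drug was compared with the control in a fit of those 6 samples, and drugs were compared with each other in a fit of all 12 samples. CPM used TMM library sizes, and RPKM divided these by the deposited gene length. The members, classes and gene lists were chosen with earlier results of these data known. Named with values per sample were collagen DEGs, those with a mean of at least 10 CPM and, with their counts or adjusted p, any other called gene, and up to 4 DEGs per list by size of change. COL5A2 and COL24A1 lie outside this rule and were named after their values were seen.

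Alternatives were DESeq2 1.42.0, limma-voom (limma 3.58.1), RLE factors, library size only, no filter, at least 10 counts in every sample, a fit of all 4 groups, the unadjusted p, the replicate number as a block, and each sample left out in turn. The GC offsets (lowess, span 0.3, on transcript GC content) and the fit without control 1 and iohexol 3 were chosen after seeing the data. In simulated counts with 200 genes changed, 93 of 100 genes changed 2-fold and 100 of 100 changed 4-fold were called in the iohexol design, with 14 others of 15257 tested. The simulation had the same dispersion for all genes and no GC trend, and changed only genes above a minimum expected count. Its shares therefore do not carry over to scarcer genes or to libraries with such a trend. Samples of the same replicate number did not deviate together (mean correlation -0.02 over 18 pairs, -0.18 to 0.10). No sample pair of a group agreed within sampling noise (chi-square per degree of freedom 2.28 to 15.5). Protein sequences were not used here. Figures were drawn with matplotlib 3.10.9, and counting intervals came from scipy.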

Additional observations from a re-analysis of the deposited data

Results flagged for a closer look

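The cases listed here were picked by a rule. A collagen gene had to be a DEG in opposite directions against the control with 2 drugs. The difference between the drugs also had to be called by edgeR's quasi-likelihood test in the fit of all 12 samples. There were 6 such cases. The adjusted p-values below are part of the rule and add no separate support, and the share of all genes that meet it was not counted. COL14A1, higher with iohexol and lower with cisplatin, differed by -4.47 on the log2 scale between cisplatin and iohexol (adjusted p = 1.84e-17). COL12A1, lower with vancomycin and higher with the other drugs, differed by -2.84 between vancomycin and iohexol (adjusted p = 2.12e-15) and by -2.74 between vancomycin and cisplatin (adjusted p = 1.9e-15). COL22A1, higher with vancomycin and lower with cisplatin, differed by 3.62 (adjusted p = 3e-13). COL5A1, higher with vancomycin and lower with the other drugs, differed by 3.53 between vancomycin and iohexol (adjusted p = 5.44e-15) and by 5.23 between vancomycin and cisplatin (adjusted p = 1.37e-16). In each case all 3 samples of the higher group lay above all 3 of the lower group, which are the same samples that the rule used.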

How the results depend on the processing

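The cisplatin and vancomycin counts kept within 1.5 times of their values under the alternatives, with exceptions. The number of collagen genes lower with vancomycin, and that of DEGs among them, went from 3 to 1 with at least 10 counts in every sample, which removed COL11A1 and COL17A1 from the test. COL12A1 was the one up-regulated cisplatin DEG, and this count was 0 with no filter and 0 to 1 when samples were left out in turn. The number lower with vancomycin than with cisplatin was 1 to 2 when samples were left out. The iohexol counts moved most. Collagen genes higher (2) became 4 with limma-voom, 5 with all 4 groups in the fit, 4 with the unadjusted p, 4 with the GC offsets, 6 without control 1 and iohexol 3, and 2 to 6 when samples were left out in turn. Those lower (5) became 3 with library size only, 11 with no filter, 8 with all 4 groups, 8 with the unadjusted p, 13 with the GC offsets, 10 without both libraries, and 3 to 8 when samples were left out. DEGs higher with iohexol (2) became 4 with all 4 groups, 5 without both libraries and 2 to 5 when samples were left out. The numbers higher, and of DEGs higher, with all 4 groups, without both libraries and without iohexol 3 each include a gene that the main comparison did not test. The cause was not tested. Directions that reversed were of genes not called: COL11A2 with iohexol was at 0.044 with library size only and 0.23 without both libraries. When samples were left out in turn, log2 fold changes ran from -0.57 to 0.26 for COL11A2 and -0.23 to 0.11 for COL16A1 with iohexol, and from -0.15 to 0.47 for COL11A2, -0.067 to 0.37 for COL17A1 and -0.092 to 0.12 for COL5A2 with cisplatin.

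The replicate numbers did not pair the samples. With them as a replicate block, COL7A1 was no longer lower with iohexol (adjusted p = 0.055 by edgeR), leaving 4 lower, and COL8A2 was higher with vancomycin (adjusted p = 0.0104), making 19. No other collagen call against the control changed with the block. Library size in place of TMM shifted the median of all genes by 0.07 with iohexol, 0.22 with cisplatin and -0.08 with vancomycin. Depth limits the genes of few counts, and with 3 samples a group a change that misses the threshold may still be present.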
